A study of Homo sapiens with 6 samples.

Results

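Chromosome 19 carries 240 genes with a ZNF symbol and a protein-coding RefSeq name in the RNA-Seq table analysed here, of 18984 genes with such a name in all. They were chosen by name and chromosome, without regard to expression, and where a gene had several assembled loci, the one with most RefSeq names and then with the highest FPKM was taken. The 240 genes lie at 228 loci, because 10 loci hold 2 or more of them (22 symbols), and loci are counted below. The expression of each locus was compared between PC-3 cells that did or did not carry an inducible transgene for TTP (tristetraprolin, encoded by ZFP36), an RNA-binding protein that marks AU-rich mRNAs for decay. PC-3 is a human prostate cancer cell line from a bone metastasis. Cells of both groups were infected with a retrovirus for rtTA2, the Tet-On transactivator that is active in doxycycline (Dox), and then with a second retrovirus. In the tdTom group this carried tdTomato, a red fluorescent protein, behind the PGK promoter, and in the TTP-tdTom group it also carried TTP behind the Dox-dependent Tight promoter. Infected cells were sorted by flow cytometry as pools, and all 6 samples, 3 per group, received 300 ng/ml Dox for 4 h.

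Most of these genes encode C2H2 zinc finger proteins, in which each finger folds around a zinc ion and reads a few bases of DNA. Many also carry a KRAB box, which recruits TRIM28 and, through it, SETDB1 and HP1 proteins to silence chromatin, above all at retroelements. The genes arose by repeated tandem duplication and stand in clusters on chromosome 19, so neighbours often share sequence. TTP binds UAUUUAU and longer AU-rich runs in 3′UTRs and recruits deadenylases, and zinc finger mRNAs are known in general as short-lived.

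The values are the authors' FPKM (fragments scaled to transcript length and library size), 1 per group and locus, made from the 3 samples of each group. Pairs of FPKM values are given with the tdTom group first and the TTP-tdTom group second. The table holds no value of a single sample, and the authors' own p-values in it were not used, so no spread between replicates or test is given and no difference below has a replicate check. Per the labels a target depth was set per library, but the depth reached and the fragments behind a value cannot be read from FPKM. ZFP36 itself stood at 5.56 and 5.54 FPKM, so this locus does not check the group labels, from which the direction of each comparison was taken. Reads of the transgene were not analysed here. Of the epithelial markers, KRT8 (20.9 and 19.1), KRT18 (98.2 and 91.5), KRT19 (60.2 and 67.1) and EPCAM (15.1 and 16.8) were present in both groups, while CDH1 and KRT5 were below 0.5. The leukocyte marker PTPRC was at 0.243 and 0.566, and CD68 could not be read alone, since its locus (323 and 262) also holds EIF4A1, SENP3 and other genes.

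Of the 228 loci, 168 had a mean FPKM of at least 1 over the groups and a value above 0 in both, and are called expressed below. They hold 180 of the 240 symbols. The other 60 lay under that minimum, apart from ZNF570, which was listed at 0 without TTP and at 2.03 with it. The expressed zinc finger loci were modest in level. Their median mean FPKM was 4.60, and 33 of the 228 loci reached 10, beside a median of 8.29 over 11126 expressed protein-coding loci.

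The sites that TTP is known to bind were read from GENCODE release 29 (GRCh38), in the longest 3′UTR of each gene. This was taken over all protein-coding transcripts under the gene's name and need not belong to the one with the longest coding sequence. Sites of genes that stood lowest with TTP are shown. Those of ZNF91 and ZNF254, both of band p12, are added and share most of their letters. Each line is 27 bases of mRNA sequence written as DNA, with the heptamer TATTTAT in capitals.
ZNF260, first of 2 copies, chr19:36512975-36513001, minus strand: tgttctcaacTATTTATgaactgtggt
ZNF28, the only copy, chr19:52797699-52797725, minus strand: attgtatgtgTATTTATatgtttttaa
ZNF567, the only copy, chr19:36720984-36721010, plus strand: taagagaaaaTATTTATgaactatatt
ZNF430, the only copy, chr19:21035165-21035191, plus strand: actttaacaaTATTTATtttttcaatc
ZNF529, first of 3 copies, chr19:36545216-36545242, minus strand: ttattggattTATTTATttattttgag
ZNF507, last of 4 copies, chr19:32385860-32385886, plus strand: aataacatgtTATTTATtggtattgac
ZNF468, first of 4 copies, chr19:52880350-52880376, minus strand: tatgttctttTATTTATttatttattt
ZNF91, the only copy, chr19:23358438-23358464, minus strand: gaagaggcatTATTTATgaccttttct
ZNF254, the only copy, chr19:24129031-24129057, plus strand: tattaggcatTATTTATgaccttttct
The ZNF468 site was read from a transcript under that gene's name, but it lies upstream of the ZNF468 promoter (chr19:52857620-52857869, minus strand). It thus cannot be in the 3′UTR of an mRNA that starts there. In ZNF529 and ZNF468 the copy shown overlaps the next one, so that the heptamer lies within the longer nonamer TTATTTATT. The copy shown for ZNF507 lies within it too, alone of that gene's 4 copies, whereas the first copy is shown for the other genes with several. ZNF146, ZNF699 and ZNF726, which also stood among the 10 lowest, hold no copy of the heptamer in the 3′UTR read. For ZNF28, ZNF430, ZNF529, ZNF507, ZNF254, ZNF699 and ZNF726 that 3′UTR came from another transcript than the longest coding one. Whether the longest coding transcript of these genes holds the same sites was not examined.

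With TTP, 107 of the 168 expressed zinc finger loci had a lower FPKM and 61 a higher one. The median log2 ratio of TTP-tdTom over tdTom was -0.13, which leaves 91.6% of the tdTom level, with quartiles of -0.32 and 0.11. Over all 11126 expressed protein-coding loci, 80.9% were lower and the median log2 ratio was -0.24. The zinc finger loci as a group thus lay closer to equal levels than the table as a whole, and their direction depends on the scale. Relative to the median of all expressed protein-coding loci, their median log2 ratio was 0.12 and 63 of the 168 were lower. Without the minimum FPKM, 128 of 227 loci were lower and the median was -0.034.

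A fold of 1.5 was used to mark larger differences. By it, 19 of the 168 loci (11.3%) were lower in the TTP-tdTom group and 4 (2.38%) were higher, beside 23.3% lower and 1.79% higher over all expressed protein-coding loci. Here too the balance depends on the scale. Relative to the median of all expressed protein-coding loci, 8 of the 168 were lower by 1.5-fold and 19 higher. Of all 11126 loci, 1487 were lower and 449 higher on that scale. After rescaling both groups to the same FPKM sum, 8 of the 168 were lower and 17 higher, beside 1541 and 420 of the 11126. By a fold of 2, 4 loci were lower and 3 higher, beside 8.49% and 0.8% of all loci. ZNF genes on other chromosomes, 208 expressed loci, had a median log2 ratio of -0.19, with 33 (15.9%) lower by 1.5-fold and 0 higher. The other 607 expressed loci of chromosome 19 had a median of -0.12, and 24 of them (3.95%) were lower by 1.5-fold. Among symbols of the chromosome that start with ZFP, ZSCAN, ZIM or ZIK, 4 were expressed, ZFP36 included, and 0 of these passed a fold of 1.5. Zinc finger genes under further names were not searched.

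**Figure D1:**
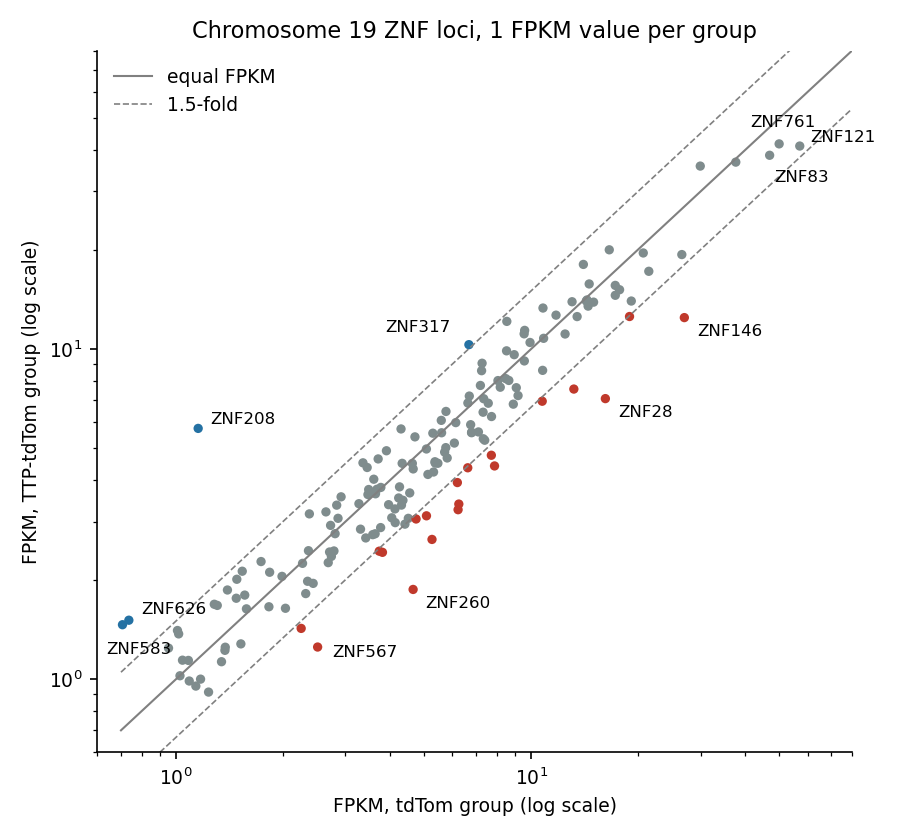
FPKM of the 168 expressed ZNF loci of chromosome 19 in the tdTom group (horizontal, log scale) and the TTP-tdTom group (vertical, log scale), 1 point per locus and 1 authors' value per group. Red points are the 19 loci at least 1.5-fold lower and blue points the 4 at least 1.5-fold higher. Most points lie between the dashed 1.5-fold lines.

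The lowest ratio belonged to ZNF260, which encodes a protein made of fingers with no KRAB box and is known as a regulator in heart muscle. It stood at 4.65 and 1.87 FPKM, so that 40.2% of the tdTom level was left, a log2 ratio of -1.32 (chr19:37001589-37019248 of GRCh37). ZNF28 followed, with 16.2 and 7.07 FPKM and a log2 ratio of -1.19 (chr19:53300661-53324922 of GRCh37). ZNF146, also called OZF, consists almost wholly of fingers, lacks a KRAB box and was the most abundant gene to differ this far. Its FPKM was 26.99 and 12.4, a log2 ratio of -1.12 (chr19:36673187-36729675 of GRCh37). The KRAB gene ZNF567 was the fourth to reach a fold of 2, at 2.50 and 1.251 FPKM and a log2 ratio of -1.001. ZNF430 was next, at 5.26 and 2.65 FPKM, a log2 ratio of -0.99.

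The remaining 5 of the 10 lowest lay between log2 ratios of -0.93 and -0.70. ZNF529 had an FPKM of 6.23 and 3.26, and ZNF699 one of 6.26 and 3.39. ZNF507, whose protein has its fingers spread along its length and no KRAB box, was at 7.89 and 4.42. ZNF468 stood at 13.19 and 7.56 FPKM and ZNF726 at 5.07 and 3.12. The 10 genes lie in 5 bands, and 4 of them (ZNF260, ZNF146, ZNF567 and ZNF529) in band q13.12.

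At the other end, 4 loci were at least 1.5-fold higher with TTP, and 3 of them stood low without TTP. ZNF208 had the highest log2 ratio, 2.32, from 1.15 to 5.75 FPKM. The locus chosen for it by the rule lies on the plus strand of chr19:22148897-22193745 (GRCh37), opposite to the annotated gene, so these values are not those of the ZNF208 mRNA. ZNF583 was at 0.707 and 1.46 FPKM, a log2 ratio of 1.05, and ZNF626 at 0.737 and 1.51, a log2 ratio of 1.03. Both reached the minimum only through the TTP-tdTom group and fell under 1.5-fold with a pseudocount of 1 FPKM. ZNF317 was the only gene higher by 1.5-fold that exceeded 2 FPKM in both groups. It had an FPKM of 6.68 and 10.3, a log2 ratio of 0.63, which fell to 0.56 and under 1.5-fold with a pseudocount of 1 FPKM. ZNF836 came next at 8.54 and 12.1, a log2 ratio of 0.51.

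The zinc finger loci with the highest levels are given next. ZNF121 led with 57.1 and 41.2 FPKM, a log2 ratio of -0.47. ZNF761 was at 49.9 and 41.8, and ZNF83 at 46.9 and 38.6. A locus at 37.7 and 36.8 FPKM holds ZNF653 together with ECSIT, a gene of another family, so its level cannot be assigned to the zinc finger gene. ZNF791 had values of 26.6 and 19.3, and ZNF254 of 20.7 and 19.5. Higher with TTP were ZNF616, at 29.9 and 35.8 FPKM, and ZNF547, at 16.6 and 19.97, with log2 ratios of 0.26 and 0.27. The joint locus of ZNF181 and ZNF302 was at 21.4 and 17.2. Of the 10 loci with the highest mean FPKM, ZNF146 alone differed by more than 1.5-fold, beside 23.3% lower and 1.79% higher over all expressed loci. At a minimum of 5 FPKM, 9 of 77 zinc finger loci (11.7%) were lower by 1.5-fold, beside 11.3% at 1 FPKM.

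Bands with at least 3 expressed loci were then compared along the chromosome, from the short arm to the end of the long arm. Band p13.2 held 36 expressed loci, 21 of them lower with TTP, and a median log2 ratio of -0.04. By 1.5-fold, ZNF699 was lower and ZNF317 higher there. Relative to the median of all expressed loci this band had a median of 0.21, with 7 of the 36 lower. By 1.5-fold 1 was then lower and 3 higher. In band p12, next to the centromere, 9 of 14 loci were lower (64.3%, beside 80.9% of all) and the median was -0.19. By 1.5-fold, ZNF430, ZNF726 and ZNF91 were lower here (21.4%), and ZNF626 and the locus opposite to ZNF208 were higher. Over all expressed loci 23.3% were lower and 1.79% higher by this fold. Once p12 was centred in the same way, 7 of the 14 were lower, ZNF430 alone by 1.5-fold, and 3 were higher by it.

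Across the centromere, the 3 expressed loci of q13.11 were all lower, with a median log2 ratio of -0.32, and ZNF507 was the lowest of them. The neighbouring band q13.12 had the lowest median of any band with 3 or more loci, -0.39, with 10 of 12 loci lower (83.3%), near the 80.9% of all expressed loci. Of its 12 loci 5 (41.7%) were lower by 1.5-fold, beside 23.3% of all, and 0 were higher. These were ZNF260, ZNF146, ZNF567, ZNF529 and ZNF420, the last of which was at 3.73 and 2.44 FPKM. After centring on the median of all expressed loci ZNF420 no longer passed 1.5-fold and ZNF793 was higher by it, so that 4 were lower and 1 higher. Genes of this band were low in level, with a median mean FPKM of 2.02, apart from ZNF146. At the top of the band's range, ZNF793 was at 0.953 and 1.24 FPKM, a log2 ratio of 0.38. The 26 expressed loci of other families in q13.12 had a median log2 ratio of -0.18, and 0 of them were lower by 1.5-fold. In q13.11 beside it, the 18 loci of other families had a median of -0.37, below that of the zinc finger loci, and 7 were lower by 1.5-fold. In q13.2, 8 of 66 were, at a median of -0.13. Whether the zinc finger loci of q13.12 differ from those of other bands was not tested, and the bands were compared with results of these data already known.

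**Figure D2:**
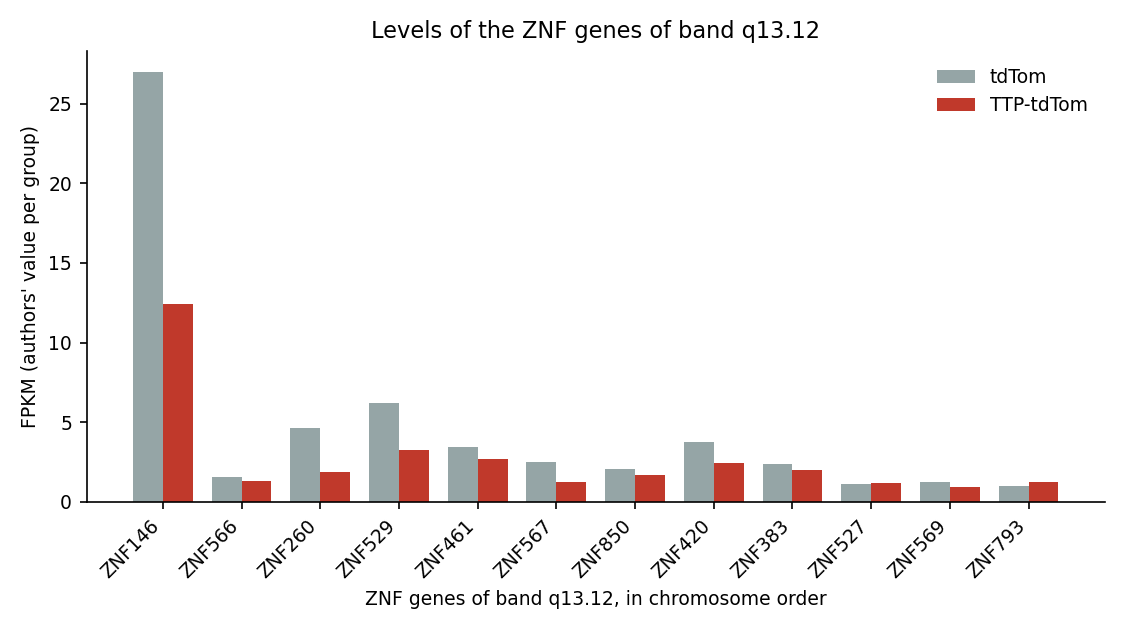
FPKM of the 12 expressed ZNF genes of band q13.12 in chromosome order, with grey bars for the tdTom group and red bars for the TTP-tdTom group (1 authors' value each, no error bars). The red bar is shorter for 10 of the 12 genes, beside 80.9% of all expressed loci, and ZNF527 and ZNF793 are the exceptions.

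Further along, q13.2 held 4 expressed loci with a median log2 ratio of 0.17, of which ZNF780B was lower, at 4.41 and 2.95 FPKM, and ZNF574 was highest in level and higher with TTP, at 4.30 and 5.73. In q13.31, 10 of 13 loci were lower (76.9%, beside 80.9% of all expressed loci), with a median of -0.19. Relative to the median of all expressed loci, 4 of these 13 were lower, 0 of them by 1.5-fold, and 1 was higher by it. ZNF224, a repressor known for its action on the aldolase A promoter, was the lowest there, at 4.74 and 3.06 FPKM (log2 ratio -0.63), while ZNF428, the highest in level, was at 6.70 and 7.20. Band q13.41 held 26 loci, 17 of them lower, with a median of -0.12 and a median level of 7.45 FPKM, the highest of the bands compared. By 1.5-fold 5 loci (19.2%) were lower, below the 23.3% of all expressed loci, and 0 were higher. With the ratios centred in this way ZNF28 alone was lower by this fold, while ZNF350, ZNF610 and ZNF836 were higher. On the deposited scale ZNF28 and ZNF468 were the lowest, followed by ZNF577, ZNF614 and ZNF611, with log2 ratios of -0.66, -0.65 and -0.63. Against these stood ZNF616 and ZNF836, higher with TTP in the same band.

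In q13.42, 8 of 12 loci were lower (66.7%, beside 80.9% of all expressed loci) and the median was -0.14. On the deposited scale 0 passed 1.5-fold in either direction. Centred on the median of all expressed loci, 5 of the 12 were lower and 3 were higher by 1.5-fold, or 2 after rescaling. The lowest was ZNF813, at 7.33 and 5.35 FPKM, and ZNF761 had the highest level. The band with the most expressed loci, q13.43 at the end of the long arm, had 25 of 42 lower and a median of -0.04. It held 3 loci lower by 1.5-fold, ZNF460 (7.72 and 4.77 FPKM), ZNF274 and ZNF772 (6.63 and 4.37 FPKM), and ZNF583 was higher. The 3 are 7.14% of the band's loci, beside 23.3% of all. Once centred, 0 loci were lower by 1.5-fold there, and ZNF583, ZNF671 and ZNF324B were higher. On the deposited scale and with a minimum of 1 FPKM, p13.2 and q13.43 therefore lay nearest to equal levels, and q13.12 farthest below. This order depends on the minimum. At 5 FPKM the median of q13.43 was -0.23, with 17 of 20 loci lower, and without a minimum that of q13.12 was -0.088 and that of q13.11 -0.23.

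**Figure D3:**
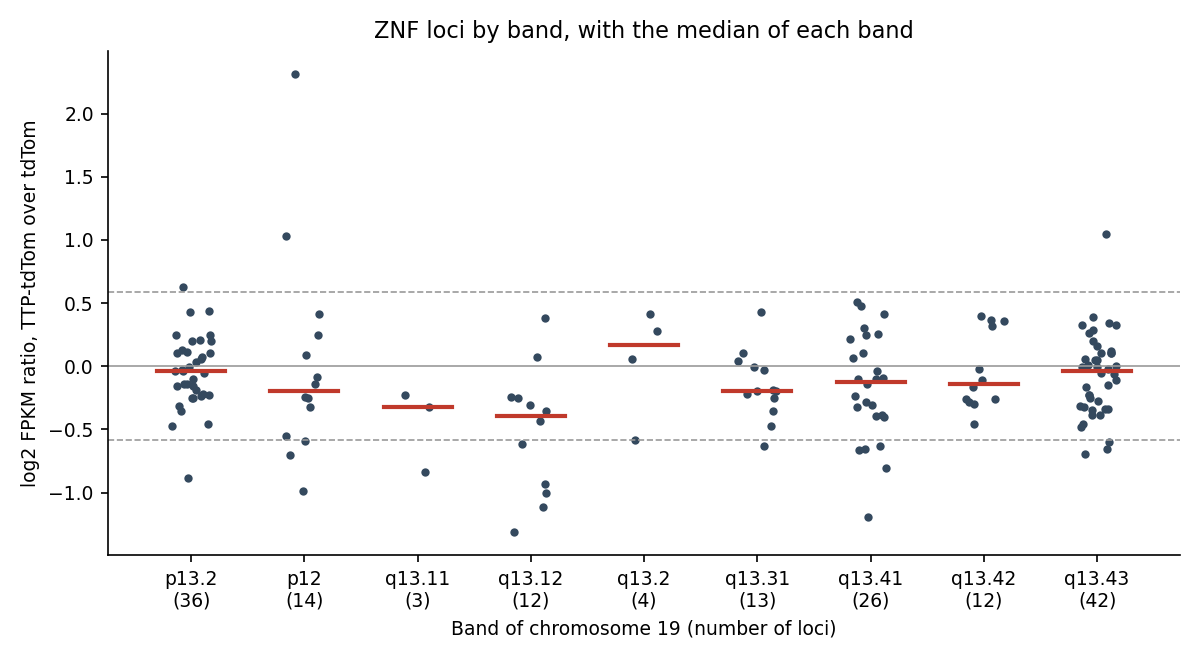
log2 ratio of FPKM, TTP-tdTom over tdTom, for the expressed ZNF loci of each chromosome 19 band with at least 3 of them, from p13.2 to q13.43, with 1 point per locus and a red line at the band's median. Dashed lines mark 1.5-fold. The median is lowest in q13.12 (-0.39) and above 0 in q13.2 alone (0.17).

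The members with a known role stood on both sides of equal levels. ZNF91, the KRAB protein that silences SVA retroelements, was at 18.9 and 12.5 FPKM, a log2 ratio of -0.59. ZNF93, which acts on LINE-1 elements, was under the minimum, at 0.210 and 0.463 FPKM. ZNF274 binds the 3′ ends of zinc finger genes themselves and recruits SETDB1 to them. It stood at 3.81 and 2.42 FPKM, a log2 ratio of -0.65. ZNF473, a part of the machinery that cuts histone pre-mRNA, was at 9.93 and 10.5. The BRCA1 partner ZNF350 was at 2.37 and 3.17, and the imprinted gene ZNF331 at 4.24 and 3.54. ZNF160 stood at 8.18 and 7.66, ZNF85 at 13.04 and 13.9, ZNF43 at 0.910 and 0.750 and ZNF382 at 0.788 and 0.675. With ZNF146 and ZNF224, 9 of the 12 genes with a known role were expressed. ZNF91, ZNF224, ZNF274 and ZNF146 were lower by 1.5-fold and 0 of the 9 were higher, beside 23.3% and 1.79% of all expressed loci. Relative to the median of all expressed loci, ZNF146 alone of them was lower by 1.5-fold, and ZNF350, at 0.66, was higher.

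The proteins that KRAB zinc fingers recruit were read beside them, from a list of 27 genes of the TRIM28, SETDB1, HP1, NuRD, HUSH and DNA methylation machinery. TRIM28 itself, the hub of KRAB repression, was at 39.2 and 32.6 FPKM, a log2 ratio of -0.27. SETDB1, its histone methyltransferase, was at 6.79 and 5.95. In all, 26 of the 27 genes were lower, the median log2 ratio was -0.26, 4 were lower by 1.5-fold and 0 were higher, beside 80.9%, 23.3% and 1.79% of all expressed loci. These 4 were the deacetylase HDAC2 (30.8 and 14.97 FPKM), the TRIM28 relative TRIM33 (19.96 and 11.02), the HP1 protein CBX3 (82.6 and 48.2) and the remodeller SMARCAD1 (37.1 and 22.2). The exception to the direction was MTA3, at 6.82 and 7.36. MTA2 is counted with a value (279 and 258) from a locus it shares with EEF1G, EML3 and TUT1. The median of the list lay near that of all expressed loci, -0.24.

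The proteins were described from the coding sequence of 239 matched members. By a C2H2 pattern they held a median of 12 fingers and up to 36 (ZNF208), in proteins of 170 to 1365 residues with a median of 590. A strict KRAB A-box pattern was found in 174, among them 31 of the 32 members of q13.41 and 2 of the 22 of q13.31. A KRAB box spelled in other letters is missed by it. Among the 154 expressed members with a locus of their own, which include ZNF208 and ZNF132 with values from the opposite strand, 15 of 117 with the KRAB pattern were lower by 1.5-fold, and 4 of 37 without it (12.8% and 10.8%), beside 23.7% of all expressed genes with a matched transcript. The median log2 ratio was -0.14 in both. Finger number and log2 ratio had a Spearman's rho of -0.08 across these 154 genes, which come from the same libraries and are not independent.

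The heptamer was present in the longest 3′UTR of 66 of 152 expressed members (43.4%), beside 36.8% of all expressed genes. The nonamer was present in 18 (11.8%), beside 9.68% of all. Of the 66 with a heptamer, 13 (19.7%) were lower by 1.5-fold and the median log2 ratio was -0.24. Of the 86 without, 6 (6.98%) were lower and the median was -0.05. Over all expressed genes the same shares were 40.4% and 14.0%, and over ZNF genes of other chromosomes 28.99% and 9.23%. The members with a heptamer thus had the lower values, as in the other sets, and in each class the chromosome 19 share was below that of all genes. For the other genes of chromosome 19 the shares were lower still, at 6.96% and 3.25%. Among members with 2 or more copies, 5 of 29 (17.2%) were lower by 1.5-fold and the median was -0.25, and among those with 1 copy 8 of 37 (21.6%), at a median of -0.23. For all expressed genes the shares were 50.7% and 32.6%, at medians of -0.60 and -0.37. None of these differences was tested. The longest 3′UTR often came from another transcript than the longest coding one. ZNF468, whose first site lies upstream of its promoter, is counted among the 13 and the 5. The genes with a heptamer also had longer 3′UTRs, with a median of 2865 bases beside 1306 in those without, and a lower G plus C share of the transcript, 41.5% beside 43.5%. The part of length and composition in the result was not tested.

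**Figure D4:**
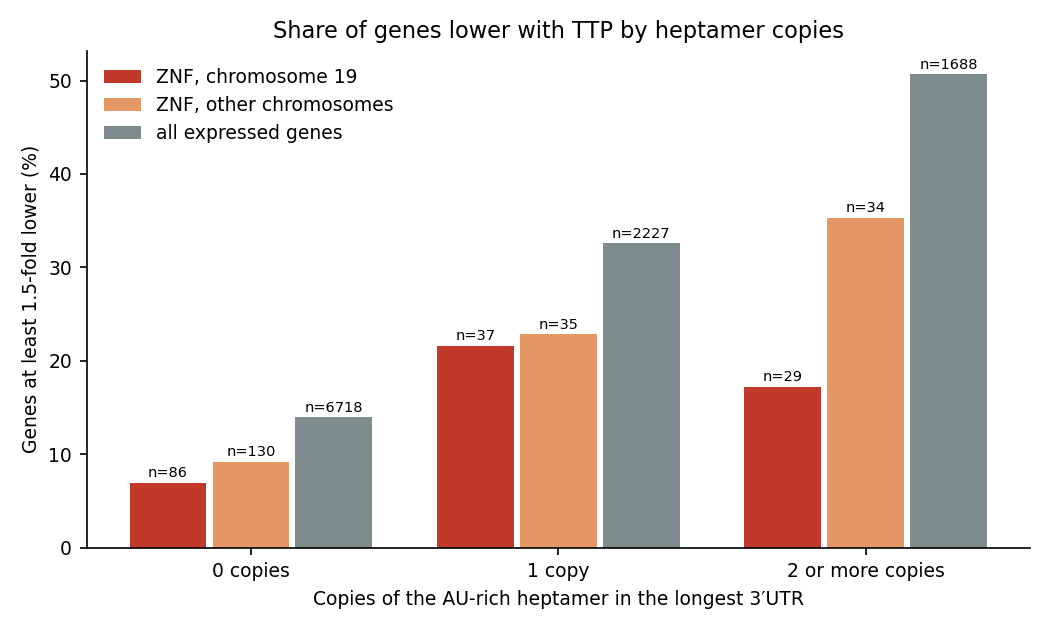
Share of expressed genes (%) at least 1.5-fold lower in the TTP-tdTom group, by copies of the heptamer in the longest 3′UTR, for ZNF genes of chromosome 19 (red), ZNF genes of other chromosomes (orange) and all expressed genes (grey), with the number of genes above each bar. In the red bars the share is 6.98% without a copy, 21.6% with 1 and 17.2% with more, and each red bar is lower than the grey bar beside it.

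Exceptions ran both ways. ZNF146 at 46.1%, ZNF699 at 54.2% and ZNF726 at 61.6% of the tdTom level hold no heptamer in the 3′UTR read. ZNF583 and ZNF626, both higher with TTP, hold 1 each, at chr19:56424818-56424844 on the plus strand and chr19:20623055-20623081 on the minus strand of GRCh38. The latter genes reached the minimum FPKM only through the TTP-tdTom group, so the minimum favours their direction. ZNF91 and ZNF254, whose sites are printed above, are close relatives in band p12. ZNF91 had a log2 ratio of -0.59 and ZNF254 one of -0.08. In q13.12, 9 of the 12 expressed genes carry the heptamer, beside 2 of 2 with a 3′UTR in q13.11 and 9 of 13 in p12. It was in 10 of 31 in p13.2, 2 of 4 in q13.2 and 4 of 13 in q13.31. Further along, the counts were 10 of 23 in q13.41, ZNF468 among them, 3 of 10 in q13.42 and 16 of 38 in q13.43.

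Composition varied with the ratio as well. The transcripts of the expressed members had a median G plus C share of 42.6%, beside 48.3% for all expressed genes. In the 77 members below their own median, 16 (20.8%) were lower by 1.5-fold and the median log2 ratio was -0.25. These lay near the 23.7% and -0.25 of all expressed genes with a matched transcript. In the 77 at or above it, 3 (3.90%) were lower and the median was -0.01. Spearman's rho between G plus C share and log2 ratio was 0.27 across the 154 genes. The 76 members in the middle of the range, with a share of 40.0% to 46.1%, had a median log2 ratio of -0.11, and 6 (7.89%) were lower by 1.5-fold. In the same range, 2722 expressed genes without a ZNF symbol had a median of -0.42, and 35.3% of them were lower by 1.5-fold. This difference was not tested. In q13.12 the median share was 38.5% and in p12 36.3%, the lowest of the bands, beside 46.1% in q13.43.

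**Figure D5:**
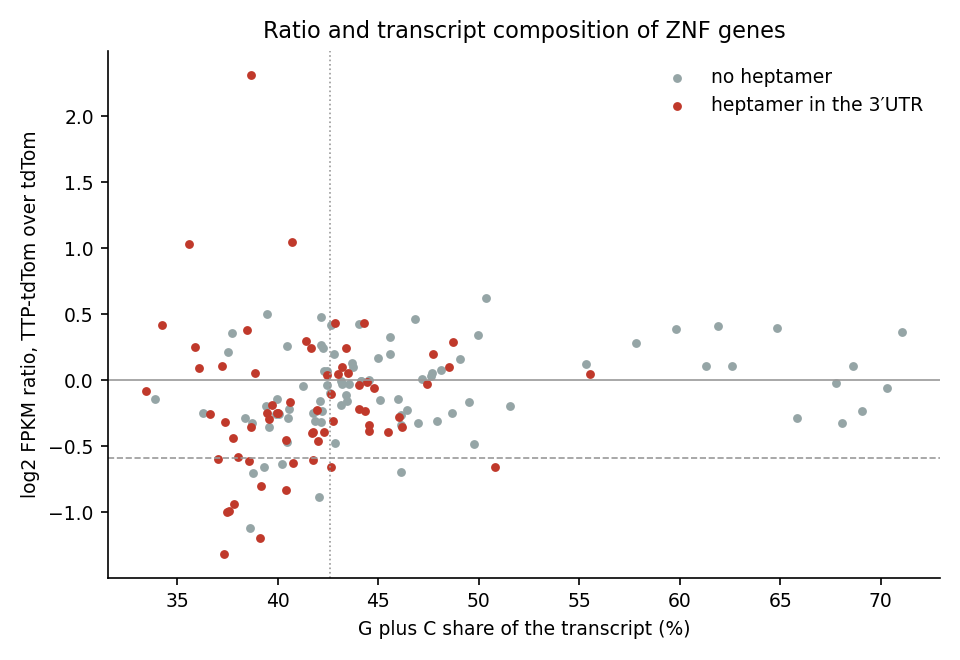
log2 ratio of FPKM, TTP-tdTom over tdTom (vertical), against the G plus C share of the transcript in % (horizontal) for 154 expressed ZNF genes of chromosome 19, red with and grey without the heptamer in the 3′UTR. The dashed line marks 1.5-fold lower and the dotted line the median share of 42.6%, and 16 of the 19 genes below the dashed line lie to its left.

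Promoters were read from RefSeq (GRCh38.p14) for 211 members. ZNF233 of q13.31 was matched by an alias to the ZNF224 promoter, which is therefore counted again for it. The 250 bases before the start are shown for ZNF260 and ZNF146, the lowest genes of q13.12, which lie near each other and share a stretch in their promoters, and for ZNF331 of q13.42, which holds the same stretch on the other strand. The capitals mark the longest stretch that the ZNF146 and ZNF260 promoters have in common, GGGAAATGTAGTC, or GACTACATTTCCC where it lies on the other strand. Its inner letters are known as a core bound by ZNF143, itself a zinc finger factor, and its partner THAP11.
ZNF260, chr19:36528272-36528521, minus strand: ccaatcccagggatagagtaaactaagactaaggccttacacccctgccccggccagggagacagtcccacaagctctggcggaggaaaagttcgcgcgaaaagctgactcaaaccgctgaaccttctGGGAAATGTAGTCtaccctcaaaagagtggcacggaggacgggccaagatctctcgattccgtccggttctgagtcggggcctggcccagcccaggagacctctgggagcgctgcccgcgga
ZNF146, chr19:36214856-36215105, plus strand: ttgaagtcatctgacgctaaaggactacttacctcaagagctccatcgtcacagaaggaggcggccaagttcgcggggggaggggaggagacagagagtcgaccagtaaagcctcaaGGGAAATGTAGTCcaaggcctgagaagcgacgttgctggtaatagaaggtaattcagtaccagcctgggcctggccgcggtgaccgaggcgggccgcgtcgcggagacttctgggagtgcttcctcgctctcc
ZNF331, chr19:53520764-53521013, plus strand: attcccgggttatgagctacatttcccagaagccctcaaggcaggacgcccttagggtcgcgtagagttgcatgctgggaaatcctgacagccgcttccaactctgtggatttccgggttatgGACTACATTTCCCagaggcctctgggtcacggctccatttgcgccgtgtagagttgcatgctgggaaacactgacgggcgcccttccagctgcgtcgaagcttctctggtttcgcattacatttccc
The stretch began 122 bases before the start in ZNF260, 133 in ZNF146 and 127 in ZNF331.

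On either strand, this stretch was present in the 300-base promoter windows of 10 of the 211 members (4.74%), beside 56 of 27305 promoters in all (0.205%), 10 of 1300 other promoters of chromosome 19 (0.769%) and 4 of 256 promoters of ZNF genes elsewhere (1.56%). By band it was in 5 of 24 promoters in q13.12, 3 of 19 in q13.31, 1 of 5 in q13.2 and 1 of 12 in q13.42. It was in 0 of 38 in p13.2, 0 of 23 in p12 and 0 of 5 in q13.11. In q13.41 it was in 0 of 26 and in q13.43 in 0 of 48. ZNF146 and ZNF260, both in q13.12, hold it by construction, so that 3 of the other 22 promoters of the band did. Promoters of tandem duplicates share descent, so these counts are not independent. The ratios of ZNF146 and ZNF260, from which the letters were taken, say nothing of the stretch. The other 6 expressed members that hold it were ZNF850, ZNF420, ZNF283, ZNF225, ZNF234 and ZNF331. All 6 had a lower FPKM with TTP, with log2 ratios of -0.31, -0.61, -0.20, -0.25, -0.48 and -0.26 in that order, and ZNF420 alone passed 1.5-fold. This direction rests on the deposited scale. With the ratios centred, ZNF283 was higher, at 0.05, ZNF225 and ZNF331 lay at -0.006 and -0.016, and ZNF420, at -0.37, no longer passed 1.5-fold. Among all expressed genes with the stretch other than ZNF146 and ZNF260, 32 of 37 were lower, beside the 80.9% of all loci given above.

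Sequence shared between members bears on how fragments were assigned. By exact stretches of 75 bases, the read length, 87 of the 154 expressed members shared none with another gene, and 13 shared more than 10% of theirs. Of these 13, 0 were lower by 1.5-fold and their median log2 ratio was -0.11, beside 19 (13.5%) of the other 141, at a median of -0.14. Some of the 19 share less, among them ZNF611 with 6.5% and ZNF772 with 5.99%. A stretch counted as shared where a transcript under another gene's name holds it, even at the same place in the genome. Such a stretch need not make a read ambiguous. The part of shared reads in the ratios was not tested. Strand bears on it too. For 5 members, ZNF132, ZNF208, ZNF546, ZNF570 and ZNF676, the chosen locus lies on the strand opposite to the annotation. With the locus on the annotated strand in their place, 166 loci were expressed, of which 19 (11.4%) were lower by 1.5-fold, the median log2 ratio was again -0.13, and 3 in place of 4 were higher, the ZNF208 locus having dropped out.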

How the data were processed

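RNA-Seq libraries of 6 samples were strand-specific, and per the labels the authors used TopHat2 2.0.13 and Cufflinks 2.2.1, with Hs37D5 (GRCh37) as genome in the methods. The authors' deposited table gives FPKM per group at 406165 assembled loci; a locus spans its assembled bundle, not 1 gene's extent. Its columns of fold changes, p-values and q-values hold the authors' own comparison and were not used. As it has no values per sample, the planned limma fit was not run.

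Log2 ratios of the FPKM were taken without a pseudocount where the mean FPKM was at least 1 and both values were above 0. Locus strand was read from the order of locus numbers: 17683 of 18715 genes lay on the annotated strand. Bands follow rounded GRCh37 boundaries entered from general knowledge. Genes were matched to GENCODE release 29 and RefSeq promoters by symbol or, failing that, by alias. The fold rule was tested on simulated data (Python 3.11.15, numpy 2.4.6, pandas 2.3.3, matplotlib 3.10.9).

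Members and lists were chosen with earlier results of these data known. Named genes are the 10 with the highest mean FPKM, the 10 lowest and 5 highest log2 ratios, the highest level and lowest ratio of each band, and 12 genes with a known role. ZNF420, ZNF793, ZNF577, ZNF614, ZNF611, ZNF772, ZNF610, ZNF671, ZNF324B and the genes named only for strand or promoter were added after their values were seen.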

Additional observations from a re-analysis of the deposited data

Results flagged for a closer look

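FPKM values on the strand opposite to a member gene are not those of its mRNA. The rule nevertheless took such a locus for ZNF208 and ZNF132 among the 168 expressed loci, and ZNF208 is 1 of the 4 higher ones. Counting the loci that carry a member's name there, 45 loci of 34 members, 24 were higher in the TTP-tdTom group and 21 lower, with median FPKM of 0.549 without TTP and 0.730 with it. No minimum FPKM was set for the 45. By 1.5-fold 18 were higher and 9 lower. Over all protein-coding loci without a minimum, 2160 of 17758 were higher by 1.5-fold and 3636 (20.5%) lower. The lower ones of the 45 include those opposite to ZNF433 (5.12 and 2.49 FPKM, tdTom first), ZNF546 (1.60 and 0.268) and ZNF507 (1.16 and 0.524). Those marked are the ones with an FPKM above 1 in the TTP-tdTom group and at least 1.5 times the tdTom value. Opposite to ZNF790 the FPKM was 5.92 and listed at 0 in the tdTom group, and opposite to ZNF570 it was 2.03 and listed at 0. Opposite to ZNF208 it was 5.75, against 1.15 in the tdTom group. The locus opposite to ZNF578 stood at 2.2 against 0.247, that opposite to ZNF540 at 1.63 against 0.569 and that opposite to ZNF132 at 1.3 against 0.549. A pair of loci opposite to ZNF846 had 1.02 against 0.190 and 1.13 against 0.556. The choice by a higher TTP-tdTom value sets their direction, and each is a single value per group with no replicate check.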

How the results depend on the processing

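No paired analysis was possible because the table holds 1 value per group, and for the same reason leaving out replicates and the replicate block were not run. Of the 115 alternative values of the family and the bands, 96 lay within a 95% interval of the reported value and 19 outside it. The intervals describe the spread over loci, which are not replicates, and a value inside one can still turn its sign. The share of loci lower by 1.5-fold, 11.3%, was 4.76% after centring on the median of all expressed protein-coding loci or rescaling to the same FPKM sum (8 lower, with 19 and 17 higher in place of 4), 5.92% with a pseudocount of 1 FPKM, 25% with the limit at 80% of the tdTom level and 2.38% at a fold of 2. All loci had 13.37% after centring, 13.9% after rescaling, 19.1% with the pseudocount and 41.2% with the limit at 80%. Of all 11126 loci, 449 were higher by 1.5-fold after centring and 420 after rescaling, in place of 199. Centring adds 0.24 and rescaling 0.23 to every log2 ratio by construction. The family's median of -0.13 became 0.12 and 0.10 under them. The band medians after centring were 0.21 in p13.2, -0.075 in q13.11, -0.15 in q13.12, 0.050 in q13.31, 0.12 in q13.41, 0.10 in q13.42, 0.41 in q13.2 and 0.20 in q13.43, and after rescaling 0.19 in p13.2, -0.092 in q13.11, -0.17 in q13.12, 0.087 in q13.42 and 0.19 in q13.43. Among the genes named for level, ratio or known role, centring and rescaling each took ZNF91, ZNF224, ZNF274, ZNF460, ZNF468 and ZNF726 below 1.5-fold and ZNF350, ZNF574 and ZNF836 above it. Of the genes added later, both took ZNF420, ZNF577, ZNF614, ZNF611 and ZNF772 below it and ZNF793, ZNF610 and ZNF324B above it, and centring alone ZNF671. A pseudocount of 1 FPKM took 7 of the former genes below it, ZNF91, ZNF224, ZNF274 and ZNF726 among the lower and ZNF317, ZNF583 and ZNF626 among the higher. Without a minimum FPKM the family's median was -0.034 and that of q13.31 -0.015. In q13.12 the median was -0.088 without a minimum FPKM, over 25 loci, and -0.22 with a pseudocount of 1 FPKM, and the cause was not tested. With runs of genes within 500 kb in place of bands, q13.12 kept its median of -0.39, whereas p12 split into a run, with part of p13.11, at 0.093, with 5 of 11 loci lower, and one at -0.25, with 5 of 5 lower. The p12 median of -0.19 was also 0.051 after centring. The annotated strand, the loci of 1 gene and the genes without shared sequence were alternatives chosen after seeing the data. Under them the family's median lay between -0.14 and -0.13. Without loci of several genes the median of q13.41 was -0.23 in place of -0.12 and that of q13.42 -0.21 in place of -0.14, and on the annotated strand that of p12 was -0.25 and that of q13.43 -0.024. The fragments behind each FPKM are not known, so depth limits cannot be given.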

Other observations

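Loci of ZNF symbols with noncoding RefSeq names only, 12 loci of 9 symbols, were not counted as members. Of these symbols, ZNF577 is a member through another locus, on the opposite strand. ZNF724P in p12, a neighbour of ZNF91, was at 20.6 FPKM without TTP and 9.73 with it, a log2 ratio of -1.08. ZNF525 stood at 5.92 and 4.93 and ZNF702P at 3.62 and 2.40. In all, 8 of the 12 loci were lower with TTP and 4 higher, beside 80.9% lower among all expressed loci, although no minimum FPKM was set for the 12. These genes were named after their values were seen.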
